A study of Mus musculus with 9 samples.

Results

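Primary osteoblast precursors from mouse calvaria, the flat bones of the skull roof, were profiled by RNA-seq after 4 and after 7 days of osteoblast differentiation. The 3 libraries of day 7 were compared with the 3 libraries of day 4, that is 6 of the 9 libraries in the series, and genes were joined by their Ensembl identifiers. The other 3 libraries came from cells before differentiation (day 0) and are given here only as levels beside those of the later stages. Of 40526 genes in both stages' tables, 25269 had reads in at least 1 of the 6 libraries and 12778 had a mean level of at least 1 CPM, that is reads scaled to the size of the library. These 12778 genes are described. The question was what the later days of differentiation add to the state that the cells had reached by day 4.

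All groups came from C57BL/6 pups at postnatal day 2-3, and no genotype differed between them. Cells were grown to confluence and then kept in mineralization medium, which held ascorbic acid and β-glycerol phosphate, for 4 or 7 days with fresh medium every day. Cells that had mineralized were released with collagenase I before trypsin, whereas cells that had not were released with trypsin alone, and by the study's methods the collagenase step lasted longer at day 7 than at day 4. Stage and time in the enzyme therefore cannot be told apart. Total RNA was depleted of ribosomal RNA. The study describes the 3 libraries of a stage as biological replicates, but the labels do not say whether they came from separate litters or isolations.

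Osteoblasts first lay down a collagen matrix and then mineralize it. Alkaline phosphatase releases phosphate from pyrophosphate and other substrates, small acidic proteins bind the growing mineral, and cells that become buried in the matrix turn into osteocytes, which secrete the Wnt inhibitor sclerostin. Osteoblasts make much of their ATP by aerobic glycolysis, the conversion of glucose to lactate in the presence of oxygen.

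The stages lay in separate tables. Day 4 stood alone in its table, and day 7 shared a table with day 0. The day 4 libraries held 32820610 to 37306090 reads on genes and the day 7 libraries 10675858 to 15622755, so stage, table and depth cannot be told apart. CPM values were rescaled by a median-of-ratios factor for each library, which ranged from 0.9933 to 1.0474 at day 4 and from 0.9158 to 1.0238 at day 7. A difference below is the mean of log2(rescaled CPM + 0.5) at day 7 minus that at day 4, with its standard error (SE, n = 3 and 3), and this scale understates the change of low genes. Levels are rescaled RPKM, reads scaled to both gene length and library size, given in the order of replicates 1, 2 and 3. A gene is called higher or lower when the 3 libraries of day 7 all lay above or all below the 3 of day 4; no test was used for that call. Protein-coding genes took 85.0% of the reads in day 7 replicate 2, 93.7% and 95.2% in the other day 7 libraries and 91.4 to 93.5% at day 4. Long intergenic noncoding RNAs took 10.2% of the reads in day 7 replicate 2 and 2.35 to 5.59% in the other 5 libraries.

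Of the 12778 genes, 2896 (22.7%) were higher at day 7, 2695 (21.1%) were lower and 7187 had overlapping libraries. Every count of list members below is to be read beside these shares of all genes. The median difference of all genes was close to 0 after rescaling. With the CPM as deposited it was -0.07, and the split became 1754 higher (13.7%) against 3191 lower (25.0%), so that 35.5% of the calls were higher in place of 51.8%. Most differences were small. A fold of over 2 without overlap was seen for 150 genes that were higher (1.17%) and 164 that were lower (1.28%). edgeR's quasi-likelihood test on the reads recovered from the CPM called 1623 genes higher (12.7%) and 1638 lower (12.8%) at an adjusted p of 0.05, of which 1614 and 1620 were also called by non-overlap. Without day 7 replicate 2, 3538 genes were higher (27.7%) and 3291 lower (25.8%), a rise that comes from the smaller number of libraries.

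**Figure D1:**
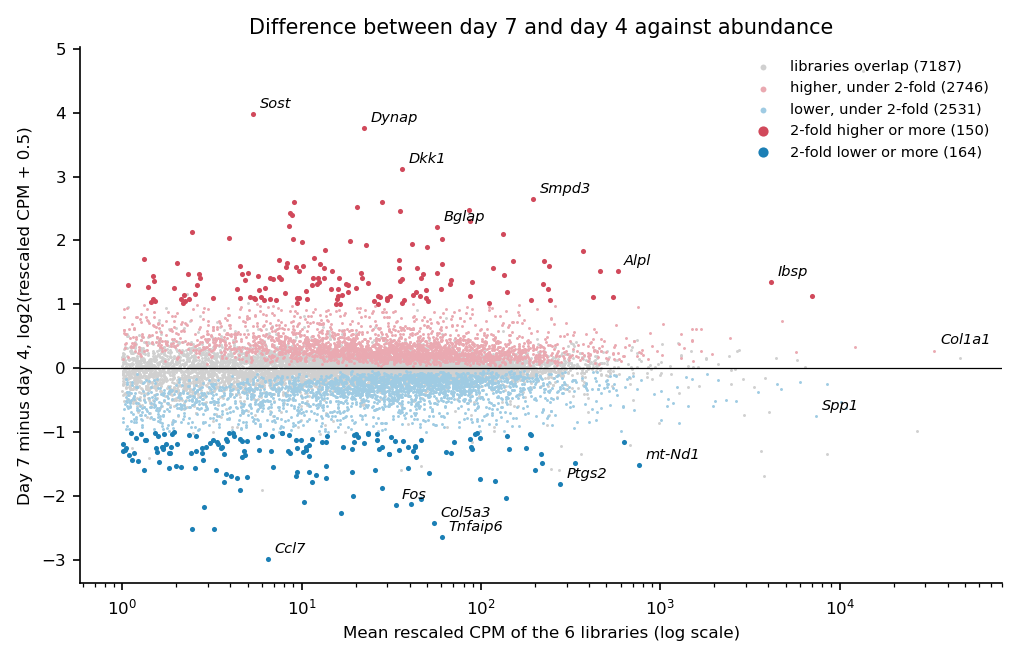
Each point is a gene, with the mean rescaled CPM over the 6 libraries on a log axis and the difference of log2(rescaled CPM + 0.5), day 7 minus day 4, on the vertical axis. Coloured points are the 2896 genes higher and the 2695 genes lower without overlap. Sost, Dynap and Dkk1 lie near the top, at 3.98, 3.76 and 3.11, and most points lie near 0 at every abundance.

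Several genes of mineral deposition had large differences. In a list of 20 mineralizing matrix proteins and enzymes above the CPM limit, 9 were higher and 5 lower, and 7 of the 9 were over 2-fold higher, against 1.17% of all genes. The median difference of the list was 0.32, beside a median close to 0 over all genes. Alpl (chr4:137741733-137796384, reverse strand, GRCm38), which encodes tissue-nonspecific alkaline phosphatase, had levels of 71.4, 80.6 and 69.7 RPKM at day 4 and 234, 234 and 174 at day 7. The lowest day 7 value was above the highest day 4 value. The difference was 1.52 ± 0.16, and the level before differentiation was 8.91 to 10.1 RPKM. Phospho1, a phosphatase that frees phosphate inside matrix vesicles, had levels of 1.802, 1.41 and 1.54 RPKM at day 4 and 8.63, 7.05 and 5.97 at day 7, a difference of 2.02 ± 0.17. Smpd3 (chr8:106252548-106337988, reverse strand) encodes neutral sphingomyelinase 2, an enzyme whose loss in mice impairs bone mineralization. Its levels were 14.3, 6.76 and 11.3 RPKM at day 4 and 63.6, 58.6 and 73.98 at day 7, a difference of 2.65 ± 0.33, and its level at day 0 was 0.243 to 0.307 RPKM. These 3 enzymes were already above day 0 in every day 4 library and were higher again at day 7.

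Among the secreted matrix proteins, Ibsp, encoding bone sialoprotein, had levels of 949.6, 1305 and 1144 RPKM at day 4 and 3142, 3131 and 2356 at day 7, a difference of 1.34 ± 0.19. Bglap encodes osteocalcin, a small protein that binds mineral through carboxylated glutamates. Its levels were 28.1, 32.5 and 36.3 RPKM at day 4 and 123, 178 and 157 at day 7, a difference of 2.21 ± 0.19, with 0.303 to 0.697 RPKM at day 0. Of the 50-base stretches of Bglap's exons, 56.6% also occur elsewhere among genes, so the split of reads between Bglap and its copies is uncertain. Bglap2 showed a difference of 1.34 ± 0.20 and mean levels of 14.4 RPKM at day 4 and 38.6 at day 7. Ifitm5, also called Bril, a membrane protein of osteoblasts, had levels of 35.9, 28.99 and 35.1 RPKM at day 4 and 146, 127 and 139 at day 7, a difference of 2.03 ± 0.11, although 29.7% of its exonic bases overlap other genes. The libraries of the 2 stages stood well apart for each of these 4 genes. Col1a1 and Sparc, which were already among the most abundant transcripts at day 4, were higher by only 0.28 ± 0.09 and 0.33 ± 0.07, and edgeR gave them adjusted p values of 0.132 and 0.0582, over its threshold.

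The promoter of Bglap is shown because osteocalcin is a known target of the osteoblast factor Runx2. The 250 bases before its start, at chr3:88384467-88384716 on the reverse strand of GRCm38.p6, come from RefSeq, and the capitals mark a match to TGTGGT, the core that RUNX factors bind, here on the opposite strand as ACCACA at base -132 from the start.
Bglap promoter: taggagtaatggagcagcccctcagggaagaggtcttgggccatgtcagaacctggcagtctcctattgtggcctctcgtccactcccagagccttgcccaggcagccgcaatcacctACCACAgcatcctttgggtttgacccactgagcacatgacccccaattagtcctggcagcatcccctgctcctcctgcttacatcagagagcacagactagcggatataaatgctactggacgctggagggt
Both strands of promoter windows from 250 bases before to 50 after the start were searched. TGTGGT was found in 16.8% of all 32851 windows. Counted by gene, in any window of the gene, it was found in 14.6% of the genes above the CPM limit with a promoter. A gene with several windows has more places for a match, so shares of windows and of genes are not on the same scale. TGTGGT was found in 12 of the 85 over 2-fold higher genes with a promoter in the table, or 14.1%. Of the over 2-fold lower genes 17 of 102 held it, or 16.7%. Of the 6 mineralizing matrix members that were higher and had a promoter, Bglap and Sparc held it. A match is a description of letters and not a binding site.

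Not all mineral genes were higher. Enpp1, which makes the mineralization inhibitor pyrophosphate, had levels of 17.2, 22.3 and 19.95 RPKM at day 4 and 8.25, 9.51 and 6.999 at day 7, a difference of -1.26 ± 0.17. The phosphate transporter Slc20a1 had levels of 91.02, 62.6 and 80.4 RPKM at day 4 and 39.3, 40.6 and 40.996 at day 7, a difference of -0.93 ± 0.16, and its relative Slc20a2 a difference of -0.39 ± 0.07. The levels of Spp1, encoding osteopontin, which binds mineral and restrains its growth, were 4924, 6540.1 and 5400.2 RPKM at day 4 and 3964, 3247 and 2812 at day 7. Spp1 was lower in every day 7 library, at -0.75 ± 0.19, but remained above the 739.95 to 1043 RPKM of day 0. Mgp, encoding the calcification inhibitor matrix Gla protein, was also lower, at -0.35 ± 0.13. Dmp1 and Phex, both acting in phosphate control and mineralization, had overlapping libraries, with differences of 0.06 ± 0.35 and 0.44 ± 0.36. Mepe, encoding a phosphoglycoprotein of bone matrix, also overlapped at 0.60 ± 0.47. Bglap3, Dspp and Ahsg were below the CPM limit, and Dspp and Ahsg had no reads in the 6 libraries of days 4 and 7.

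**Figure D2:**
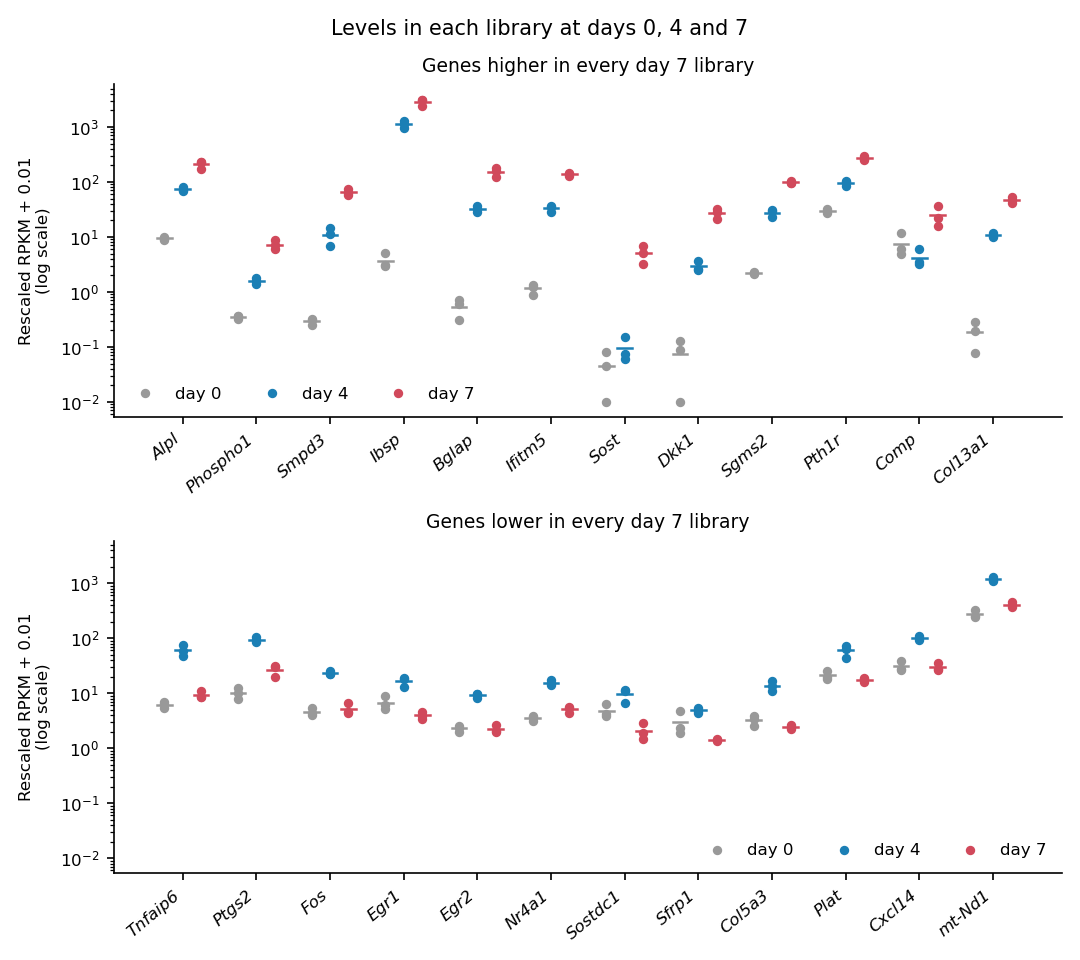
Rescaled RPKM of selected genes in each library at day 0, day 4 and day 7, on log axes after adding 0.01, with 1 point per library and a bar at the mean of each stage. Alpl, Bglap and Sost are higher in all 3 day 7 libraries than in all 3 day 4 libraries, and Fos and Tnfaip6 are lower.

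The largest difference in the osteocyte list was that of Sost (chr11:101962458-101967015, reverse strand), which encodes sclerostin. Sost had 10, 5 and 4 reads at day 4 and 149, 140 and 104 at day 7 in libraries of smaller depth, that is 0.143, 0.0653 and 0.0513 RPKM at day 4 and 5.16, 6.93 and 3.24 at day 7. The difference was 3.98 ± 0.33, and the day 4 levels were within the range of a few reads, close to the 0 to 0.0695 RPKM of day 0. Of 20 osteocyte genes, 6 were higher and 4 lower, with a median difference of 0.11. Dkk1 (chr19:30545863-30549665, reverse strand), a Wnt inhibitor made by osteoblasts and osteocytes, had levels of 2.49, 3.68 and 2.65 RPKM at day 4 and 27.9, 31.8 and 21.4 at day 7, a difference of 3.11 ± 0.23. Sgms2, a sphingomyelin synthase in which mutations cause osteoporosis, had levels of 29.98, 22.96 and 30.3 RPKM at day 4 and 104, 96.6 and 94.2 at day 7, a difference of 1.83 ± 0.14. Ptprz1, a receptor tyrosine phosphatase, and the homeobox gene Irx5 were higher by 1.19 ± 0.33 and 0.88 ± 0.16. In contrast Tnfsf11, encoding the osteoclast factor RANKL, had levels of 7.49, 4.12 and 6.74 RPKM at day 4 and 2.53, 2.42 and 2.13 at day 7 and was lower, at -1.26 ± 0.26. Its decoy receptor Tnfrsf11b, encoding osteoprotegerin, overlapped at -0.14 ± 0.30. Cd44, a hyaluronan receptor, was lower by the same rule at -0.69 ± 0.11. Fgf23 and Reln were below the limit, and Pdpn, encoding podoplanin, was listed at 0 in all 9 libraries.

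The transcription factors of the osteoblast lineage split evenly, with 7 of 24 higher and 7 lower. That is 29.2% each way, beside 22.7% and 21.1% of all genes. Runx2, the first determinant of the lineage, had levels of 9.44, 8.41 and 8.84 RPKM at day 4 and 9.89, 9.59 and 9.56 at day 7, a difference of only 0.12 ± 0.05, which was not called with the CPM as deposited and had an adjusted p of 0.169 by edgeR. Sp7, also called Osterix, which acts after Runx2, had levels of 48.5, 54.1 and 47.3 RPKM at day 4 and 86.9, 70.003 and 77.1 at day 7, a difference of 0.64 ± 0.11. Dlx3 had the largest difference of the list among the factors that were higher, at 1.58 ± 0.08, with levels of 1.67, 1.81 and 1.62 RPKM at day 4 and 6.06, 5.18 and 5.19 at day 7. Mef2c, a factor of skeletal gene expression, was higher by 0.98 ± 0.18, and Tcf7, a nuclear partner of β-catenin, by 1.52 ± 0.22. Atf4, which drives amino acid supply in osteoblasts, had overlapping levels of 401, 446 and 432 RPKM at day 4 and 422, 437 and 431 at day 7. Lef1, another β-catenin partner, was lower at -0.92 ± 0.18, from mean levels of 0.543 to 0.2604 RPKM. The other 6 that were lower included the AP-1 members Junb, Fosl1 and Fosl2, at -0.87 ± 0.17, -0.55 ± 0.22 and -0.57 ± 0.14.

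**Figure D3:**
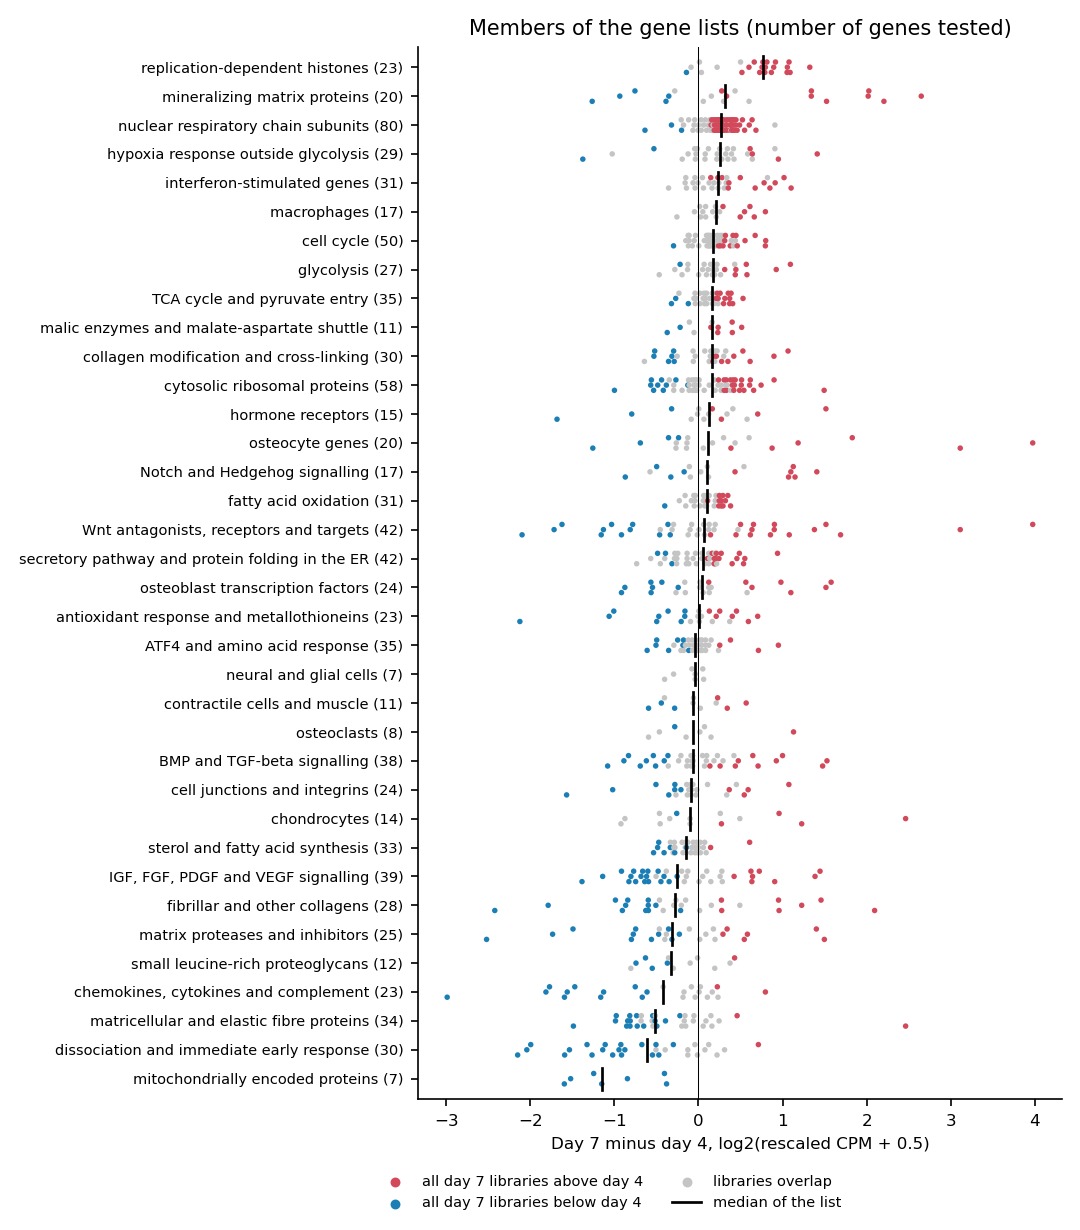
Each point is a gene of a list, placed by its difference of log2(rescaled CPM + 0.5), day 7 minus day 4, with the number of genes above the CPM limit after the list's name. Red and blue points did not overlap between the stages and black bars mark medians. Replication-dependent histones have the highest median, at 0.77, and mitochondrially encoded proteins the lowest, at -1.15.

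The collagens lay on both sides. Of 28 collagen genes, 7 were higher (25.0%) and 12 lower (42.9%), beside 22.7% and 21.1% of all genes, with a median difference of -0.28. Col13a1, a transmembrane collagen, had levels of 10.1, 11.9 and 10.5 RPKM at day 4 and 46.6, 52.3 and 41.5 at day 7 and a difference of 2.095 ± 0.12. Col24a1, Col11a2 and Col22a1 were higher by 1.46 ± 0.04, 0.96 ± 0.12 and 0.95 ± 0.30, each from a lower level at day 0. Col10a1, a collagen of hypertrophic cartilage, was higher at 1.23 ± 0.31 from a mean level of 1.03 RPKM. The largest difference downwards was that of Col5a3, with levels of 11.02, 16.4 and 13.6 RPKM at day 4 and 2.67, 2.27 and 2.47 at day 7, a difference of -2.42 ± 0.18. Col3a1 and the 3 main chains of collagen VI, all found in fibrous connective tissue, were lower too, at -0.63 ± 0.04 for Col3a1 and -0.51 ± 0.07, -0.60 ± 0.08 and -0.59 ± 0.09 for Col6a1, Col6a2 and Col6a3. Col14a1 was lower at -1.79 ± 0.33 and the basement membrane chains Col4a1 and Col4a2 at -0.99 ± 0.13 and -0.84 ± 0.10. Col1a2 overlapped between the stages, at 0.15 ± 0.09. Reads on Col1a1 and Col1a2 together made up 7.08 to 8.04% of each day 4 library and 7.56 to 9.53% of each day 7 library.

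Of 30 genes for the modification and cross-linking of collagen, 10 were higher and 6 lower. Loxl4, a lysyl oxidase, had levels of 33.7, 42.95 and 35.3 RPKM at day 4 and 79.9, 86.1 and 68.5 at day 7, a difference of 1.07 ± 0.14. P4ha1, the catalytic chain of prolyl 4-hydroxylase, had levels of 271, 383 and 322 RPKM at day 4 and 514, 506 and 461 at day 7, a difference of 0.61 ± 0.15, and the prolyl 3-hydroxylase complex members P3h1, P3h4 and Crtap were higher by 0.35 ± 0.06, 0.53 ± 0.07 and 0.19 ± 0.08. Plod2, a lysyl hydroxylase, was the lowest of the members called lower, at -0.53 ± 0.19. Among 12 small leucine-rich proteoglycans, which bind collagen fibrils, only Omd, encoding osteomodulin, was higher, at 0.43 ± 0.10. Podn, Dcn, Bgn and Tsku were lower, at -0.74 ± 0.11, -0.63 ± 0.18, -0.55 ± 0.13 and -0.37 ± 0.07.

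Among other matrix genes more were lower than higher. In the list of 34 matricellular and elastic fibre genes, 16 were lower and 2 higher, with a median difference of -0.51. Ctgf, which encodes a matricellular protein of the CCN family, had levels of 143, 74.6 and 123 RPKM at day 4 and 48.6, 38.6 and 31.5 at day 7, a difference of -1.49 ± 0.34. The elastic fibre genes Eln, Fbn1, Fbn2 and Mfap4 were lower at -0.84 ± 0.21, -0.73 ± 0.17, -0.98 ± 0.34 and -0.99 ± 0.13, and Postn, encoding periostin, at -0.81 ± 0.10. Comp, encoding cartilage oligomeric matrix protein, was higher with levels of 5.91, 3.17 and 3.55 RPKM at day 4 and 36.7, 22.3 and 15.5 at day 7, a difference of 2.46 ± 0.44. The other member that was higher was Emilin1, which encodes an elastic fibre protein, at 0.46 ± 0.08. Of 25 matrix proteases and inhibitors, 11 were lower and 6 higher. Mmp3, a stromelysin, had levels of 3.099, 2.53 and 4.21 RPKM at day 4 and 0.398, 0.455 and 0.179 at day 7, a difference of -2.52 ± 0.29. Plat, encoding tissue plasminogen activator, was lower, at -1.73 ± 0.22. Adamts9 was the highest of those called higher, at 1.498 ± 0.14, from a mean level of 0.874 RPKM. Mmp13 and Mmp14, matrix metalloproteinases of bone cells, overlapped at -0.40 ± 0.23 and 0.02 ± 0.05.

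Wnt genes lay on both sides, 15 of 42 being higher (35.7%) and 12 lower (28.6%), beside 22.7% and 21.1% of all genes. Besides Sost and Dkk1, the secreted antagonists Frzb, Notum and Wif1 were higher, by 1.69 ± 0.31, 1.38 ± 0.26 and 0.86 ± 0.22. The levels of Frzb were 5.85, 3.72 and 5.38 RPKM at day 4 and 22.7, 13.4 and 13.9 at day 7. Sostdc1, a relative of Sost that also inhibits BMPs, had levels of 11.6, 6.64 and 10.9 RPKM at day 4 and 2.82, 1.46 and 1.88 at day 7, a difference of -2.097 ± 0.35. The antagonists Sfrp1 and Sfrp4 were also lower, at -1.72 ± 0.09 and -1.13 ± 0.16. Secreted Wnt antagonists were thus found on both sides. Of the receptors, Lrp4, which anchors sclerostin, was higher at 0.90 ± 0.08 and Lrp5 and Lrp6 overlapped. Axin2, a common readout of canonical Wnt signalling, overlapped at -0.12 ± 0.20, and the targets Lgr5, Apcdd1 and Nkd2 were lower at -1.62 ± 0.41, -1.16 ± 0.38 and -1.03 ± 0.16. Rnf43 went the other way by edgeR, at a log2 fold of 0.53 with an adjusted p of 0.021, as did Notum and Tcf7 above. No common direction of Wnt targets is thus shown.

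Of 38 BMP and TGF-beta genes, 10 were higher (26.3%) and 9 lower (23.7%), near the 22.7% and 21.1% of all genes. Smad9 had the largest difference upwards at 1.53 ± 0.28, with levels of 0.923, 0.894 and 0.7497 RPKM at day 4 and 3.04, 3.33 and 1.801 at day 7. Gdf6, Bmp8a, Bambi and the BMP antagonist Nog were higher by 1.48 ± 0.17, 1.000 ± 0.14, 0.93 ± 0.11 and 0.71 ± 0.18. Tgfb2 was the lowest of those called lower, at -1.08 ± 0.25, and the BMP antagonist Grem1 was lower at -0.89 ± 0.16. Id1, a direct BMP target, overlapped at 0.10 ± 0.17. Among 39 genes of IGF, FGF, PDGF and VEGF signalling, 18 were lower and 8 higher, with a median difference of -0.25. Fgf9 was the lowest of these at -1.38 ± 0.11. The feedback inhibitors of FGF and ERK signalling Spry1, Spry2, Spry4 and Dusp6 were all lower, at -0.80 ± 0.07, -0.75 ± 0.13, -0.68 ± 0.21 and -0.91 ± 0.14, whereas the receptor Fgfr3 had levels of 5.38, 4.98 and 5.66 RPKM at day 4 and 18.3, 12.7 and 11.9 at day 7, a difference of 1.39 ± 0.20. Angpt2, a vascular growth factor, had the largest difference upwards in the list, at 1.45 ± 0.07.

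In the Hedgehog pathway the receptor gene Ptch1, the transcription factor gene Gli1 and the inhibitor gene Hhip, which the pathway itself induces, were higher. Ptch1 had levels of 5.92, 6.19 and 5.34 RPKM at day 4 and 18.6, 13.2 and 15.4 at day 7, a difference of 1.41 ± 0.15, and Gli1 and Hhip differed by 1.13 ± 0.18 and 1.099 ± 0.19. Gli3, mainly a repressor of the pathway's targets, was lower at -0.50 ± 0.10, and the ligand Ihh overlapped, at 0.54 ± 0.43. Together with Notch genes, 6 of 17 were higher (35.3%) and 4 lower (23.5%), beside 22.7% and 21.1% of all genes. Hey2, a Notch target, was the lowest of these at -0.87 ± 0.24. By edgeR, Hey1 and Jag2 were higher at log2 folds of 1.36 and 1.05, with adjusted p values of 0.0408 and 0.044. Notch1 was lower by edgeR at -0.34, with an adjusted p of 0.0258. Among 15 hormone receptors, Pth1r, the receptor of parathyroid hormone, had levels of 85.3, 99.7 and 102 RPKM at day 4 and 302, 267 and 253 at day 7, a difference of 1.52 ± 0.11. The leptin receptor gene Lepr was higher at 0.71 ± 0.10 and the prostaglandin receptor gene Ptger2 was lower at -1.68 ± 0.11. In the list of 24 junction and integrin genes, 4 were higher and 7 lower. Panx3, a channel protein of osteoblasts, had a difference of 1.08 ± 0.13, whereas the connexin gene Gjb2 was the lowest at -1.57 ± 0.24.

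Many genes that respond within minutes to a stimulus were lower at day 7. Of 30 genes of immediate early response and cell dissociation, 19 were lower and only Klf4 was higher, at 0.71 ± 0.07, with a median difference of -0.61. Fos (chr12:85473890-85477273, forward strand), a subunit of the AP-1 transcription factor, had levels of 22.4, 22.5 and 24.9 RPKM at day 4 and 6.78, 4.48 and 4.301 at day 7, a difference of -2.15 ± 0.21. The day 7 levels overlapped the 4.03 to 5.49 RPKM of day 0. Egr1 and Egr2, zinc finger factors, were lower by the same rule, at -2.04 ± 0.21 and -1.99 ± 0.15. The levels of Egr2 were 8.09, 9.85 and 9.66 RPKM at day 4 and 2.63, 1.99 and 2.01 at day 7. Btg2, an inhibitor of proliferation, had levels of 47.5, 39.7 and 49.9 RPKM at day 4 and 20.2, 15.7 and 21.1 at day 7, a difference of -1.27 ± 0.17, and Nr4a1, Socs3 and Dusp1 were lower at -1.59 ± 0.13, -1.32 ± 0.13 and -1.14 ± 0.15. The heat shock genes in the list, Hspa1a, Hspa1b, Dnajb1, Hsph1 and Hspb1, all overlapped, with mean levels from 0.861 to 21.6 RPKM at day 4. The part of the longer collagenase step in these differences was not tested.

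The promoters of Egr2 and Btg2 are shown because immediate early genes are known for CArG boxes, which bind serum response factor, and for cAMP response elements (CRE, TGACGTCA). The capitals mark the CArG box of Egr2 at base -72 and the CRE of Btg2 at base -166 from the start. The 250 bases before each start come from RefSeq on GRCm38.p6, at chr10:67537619-67537868 on the forward strand for Egr2, the window with the match among 5 windows of the gene, and at chr1:134079156-134079405 on the reverse strand for Btg2.
Egr2 promoter: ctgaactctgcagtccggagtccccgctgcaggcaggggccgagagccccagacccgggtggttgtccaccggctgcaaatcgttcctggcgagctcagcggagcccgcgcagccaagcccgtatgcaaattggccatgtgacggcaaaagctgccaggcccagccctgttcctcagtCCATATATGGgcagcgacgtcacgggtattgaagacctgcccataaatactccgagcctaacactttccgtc
Btg2 promoter: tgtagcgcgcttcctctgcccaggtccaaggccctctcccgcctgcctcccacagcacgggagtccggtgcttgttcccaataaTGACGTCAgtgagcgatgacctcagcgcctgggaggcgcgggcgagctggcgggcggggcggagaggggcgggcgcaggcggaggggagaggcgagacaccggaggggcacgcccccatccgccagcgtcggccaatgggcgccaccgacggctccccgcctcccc
Of the 15 immediate early members that were lower and had a promoter in the table, Egr2 and Zfp36 held a CArG box. It occurred in 1.63% of all promoter windows. Counted by gene, it occurred in 1.60% of the genes above the CPM limit with a promoter. Btg2 and Dusp1 held TGACGTCA, which occurred in 1.79% of all windows. Counted by gene, it occurred in 3.66% of those above the limit and in 5.88% of the over 2-fold lower genes.

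Of 23 chemokine, cytokine and complement genes above the limit, 11 were lower and 2 higher, with a median difference of -0.42. Ccl7, a chemokine for monocytes, had levels of 13.4, 15.8 and 15.4 RPKM at day 4 and 0.803, 1.404 and 1.93 at day 7, a difference of -2.99 ± 0.25, and had stood at 13.7 to 17.2 RPKM at day 0. Ptgs2, encoding the inducible cyclooxygenase, had levels of 85.1, 91.2 and 105 RPKM at day 4 and 31.7, 29.7 and 19.7 at day 7, a difference of -1.81 ± 0.23. Cxcl14, Ccl2 and Lif were lower at -1.77 ± 0.15, -1.56 ± 0.19 and -1.16 ± 0.15, and Csf1, the growth factor of macrophages and osteoclasts, at -0.67 ± 0.12. The largest difference downwards among genes with a mean of at least 10 CPM was that of Tnfaip6 (chr2:52038009-52056686, forward strand), which encodes a hyaluronan-binding protein induced in inflammation. Its levels were 48.3, 76.2 and 59.3 RPKM at day 4 and 8.696, 11 and 8.59 at day 7, a difference of -2.65 ± 0.22. The metallothioneins Mt1 and Mt2, which bind zinc and copper, were lower at -1.06 ± 0.30 and -2.12 ± 0.42, although 73.5% of the exonic bases of Mt2 overlap other genes. Of 23 antioxidant and metallothionein genes, 7 were higher and 9 lower. Strand was not given for the counting in the sources used here, so reads of overlapping and antisense genes cannot be told apart.

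Interferon-stimulated genes were higher or overlapped: 12 of 31 were higher and none was lower, with a median difference of 0.23. edgeR called 6 higher, and without day 7 replicate 2 the counts were 12 and 4. Ifit3 had the largest difference, at 1.102 ± 0.27, with levels of 1.77, 1.65 and 2.06 RPKM at day 4 and 2.91, 4.804 and 5.43 at day 7, but 51.2% of its 50-base stretches occur elsewhere among genes. Bst2, an antiviral membrane protein, had levels of 25.8, 36.8 and 30.9 RPKM at day 4 and 56.9, 74.3 and 59.5 at day 7, a difference of 1.02 ± 0.19.

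Most genes of glycolysis overlapped between the stages, and those that did not were nearly all higher. Of 27 glycolysis genes, 7 were higher (25.9%) and 1 lower (3.70%), beside 22.7% and 21.1% of all genes. The median difference was 0.17, and edgeR called 5 and 1. Hk2, a hexokinase, had levels of 24.4, 31.8 and 26.4 RPKM at day 4 and 45.1, 42.6 and 35.5 at day 7, a difference of 0.58 ± 0.15. Pfkfb3, which makes an activator of phosphofructokinase, had levels of 7.45, 9.74 and 8.76 RPKM at day 4 and 19.7, 17.99 and 12.4 at day 7, a difference of 0.93 ± 0.23. Pgam2 and Eno3, the muscle forms of phosphoglycerate mutase and enolase, were higher by 1.09 ± 0.35 and 0.57 ± 0.20. Ldha, which turns pyruvate into lactate, had levels of 349, 454 and 419 RPKM at day 4 and 543, 515 and 456 at day 7. The difference was 0.31 ± 0.13, and the day 0 level was 205 to 216 RPKM. edgeR gave Ldha an adjusted p of 0.0966, over its threshold. Its libraries overlapped once a smooth trend of the difference on gene length was taken away. The glucose transporter gene Slc2a1 overlapped between the stages, with levels of 72.7, 144 and 102 RPKM at day 4 and 105, 114 and 69.05 at day 7. Eno2 was the only member that was lower, at -0.22 ± 0.05. Gapdh was higher at 0.44 ± 0.21, with an adjusted p of 0.0895 by edgeR. Only uniquely aligned reads were counted, and its many copies leave its level uncertain. In the hypoxia list outside glycolysis, 4 of 29 were higher (13.8%) and 2 lower (6.90%), both below the shares of all genes. Ankrd37 had the largest difference at 1.41 ± 0.32, although 26.4% of its exonic bases overlap other genes. Stc1 was the lowest at -1.37 ± 0.48. Pdk1, the kinase that restrains pyruvate dehydrogenase, overlapped. Its levels were 27.8, 48.2 and 37.8 RPKM at day 4 and 36.6, 40.02 and 32.5 at day 7.

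Me2, the mitochondrial NAD-dependent malic enzyme, had levels of 34.8, 34.8 and 34.6 RPKM at day 4 and 50.8, 46.2 and 52.3 at day 7, a difference of 0.51 ± 0.05. All day 7 libraries lay above all day 4 libraries, which in turn lay above the 17.02 to 18.1 RPKM of day 0. Me1, the cytosolic enzyme, had levels of 12.7, 11.8 and 12.5 RPKM at day 4 and 18.2, 16.02 and 14.9 at day 7. The difference was 0.40 ± 0.09. Its day 0 levels were 11.6 to 13.97 RPKM, so that its day 4 and day 0 libraries stood close together. Of its 50-base stretches, 28.3% occur elsewhere among genes. Me3 was below the CPM limit, with 41, 39 and 27 reads at day 4 and 6, 4 and 7 at day 7. The mitochondrial coactivator gene Ppargc1a was also below it, with 12, 13 and 12 reads at day 4 and 4, 3 and 3 at day 7. Of 11 genes of malic enzymes and the malate-aspartate shuttle, 6 were higher and 2 lower, and the carrier gene Slc25a13 was higher at 0.40 ± 0.11 while the aminotransferase gene Got1 was lower at -0.37 ± 0.13. Of 35 genes of the TCA cycle and pyruvate entry, 12 were higher and 3 lower, or 7 and 4 with the CPM as deposited. All 4 succinate dehydrogenase genes were higher, Sdha, Sdhb, Sdhc and Sdhd, at 0.26 ± 0.04, 0.39 ± 0.04, 0.41 ± 0.03 and 0.35 ± 0.06. Ogdhl had the largest difference at 0.53 ± 0.07 and Pdk3 was the lowest at -0.32 ± 0.07.

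Nuclear and mitochondrial genes for the respiratory chain lay on opposite sides. Of 80 nuclear genes for subunits of the chain, 57 were higher and 3 lower, with a median difference of 0.27. The sizes were small: Ndufa6, an accessory subunit of complex I, had the largest difference among those called, with levels of 89.98, 118 and 94.9 RPKM at day 4 and 153, 176 and 157 at day 7, a difference of 0.68 ± 0.13. Uqcrq of complex III, Cox5b of complex IV and Atp5c1 of ATP synthase were higher by 0.60 ± 0.12, 0.45 ± 0.01 and 0.40 ± 0.05. edgeR called 46 higher and 2 lower, and 43 and 2 were called with the CPM as deposited. The 7 mitochondrially encoded mRNAs above the limit were all lower, with a median difference of -1.15. mt-Nd1, a subunit of complex I, had levels of 1089.9, 1295 and 1146 RPKM at day 4 and 407, 364 and 462 at day 7, a difference of -1.52 ± 0.12. mt-Nd2 had the largest difference at -1.59 ± 0.14, and mt-Co1 the smallest at -0.38 ± 0.09. Reads counted on the 13 mitochondrial mRNAs made up 0.672 to 0.754% of each day 4 library and 0.375 to 0.464% of each day 7 library. At day 0 they made up 0.225 to 0.263%. mt-Co2, mt-Co3, mt-Atp6, mt-Atp8 and mt-Nd4l were listed at 0 in all 9 libraries. These shares therefore do not cover all mitochondrial mRNAs.

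Gene length moved with these differences. Genes were split by length into 5 groups of about equal size, and the shortest group (56 to 2100 bp) had a median difference of 0.10, with 33.3% higher and 12.5% lower. The longest group (6534 to 116825 bp) had a median of -0.07, with 13.97% higher and 31.3% lower. Once a smooth trend of the difference on length had been taken away, 42 of the 80 nuclear respiratory genes were higher and 6 lower, beside 21.9% and 20.3% of all genes. The 7 mitochondrial mRNAs were still all lower. Over all genes, 2503 of the 2896 called higher and 2315 of the 2695 called lower kept their call. Of the 94 named genes called without overlap, 92 kept theirs. Length as a cause of the differences was not tested.

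**Figure D4:**
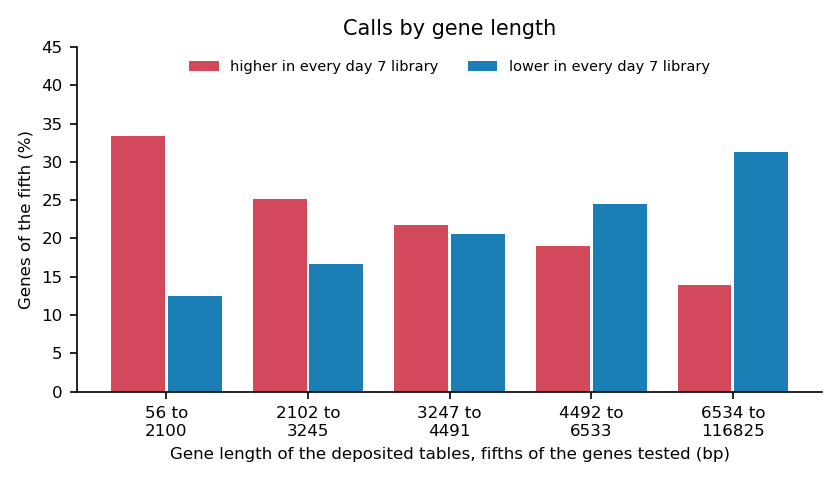
Genes in 5 groups of gene length, from shortest to longest, with the percent of genes higher and lower at day 7 without overlap in each group. The percent higher falls from 33.3 to 13.97 and the percent lower climbs from 12.5 to 31.3.

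Lipid and amino acid genes differed little. Of 31 fatty acid oxidation genes, 11 were higher and 1 lower, but 6 and 5 with the CPM as deposited, with Etfa the highest at 0.38 ± 0.08 and Acsl4 the only one lower at -0.40 ± 0.09. Of 33 genes of sterol and fatty acid synthesis, 2 were higher and 7 lower, with Dhcr7 the highest at 0.61 ± 0.12. In the list of 35 genes of the ATF4 and amino acid response, 4 were higher and 8 lower, or 3 and 13 with the CPM as deposited, and edgeR called 4 and 4. Ddit4, an inhibitor of mTORC1, had levels of 41.5, 45.1 and 47.4 RPKM at day 4 and 95.5, 81.6 and 82.99 at day 7, a difference of 0.95 ± 0.09. Slc1a5, a glutamine transporter, had levels of 31.8, 48.3 and 34.01 RPKM at day 4 and 23.4, 23.2 and 26.9 at day 7, a difference of -0.61 ± 0.20.

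In the secretory pathway 15 of 42 genes were higher and 3 lower, and edgeR called 7 and 3. Creb3l1, also called OASIS, a factor that drives collagen secretion in osteoblasts, had levels of 30.7, 30.1 and 29.2 RPKM at day 4 and 70.9, 56.2 and 48.4 at day 7, a difference of 0.94 ± 0.16. The transport genes Kdelr3, Lman1 and Sec61b were higher by 0.55 ± 0.08, 0.46 ± 0.04 and 0.40 ± 0.10. The chaperone gene Hspa5 overlapped, with levels of 688, 1428 and 1049 RPKM at day 4 and 504, 643 and 691 at day 7, and Hsp90b1 was lower at -0.49 ± 0.25 with an adjusted p of 0.0719 by edgeR.

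Genes of the replication-dependent histones were higher at day 7 than at day 4 as a list, 17 of 23, with 1 lower and a median difference of 0.77. Day 4 was the low stage. The summed level of the list was 1706 to 1963 RPKM at day 0, 1118 to 1435 at day 4 and 1694 to 2380 at day 7. The day 7 range thus overlapped that of day 0. Hist1h4h, encoding histone H4, had levels of 83.3, 79.6 and 77.5 RPKM at day 4 and 197, 176 and 239 at day 7. The difference was 1.32 ± 0.13, and its day 0 levels were 183, 198 and 159 RPKM. Of its 50-base stretches, 45.8% occur in other genes. Hist1h1c was the only member that was lower, at -0.14 ± 0.08, and edgeR gave it an adjusted p of 0.20000. With the trend on length taken away 10 were higher and 1 lower. In the cell cycle list 13 of 50 were higher (26.0%) and 1 lower (2.0%), beside 22.7% and 21.1% of all genes. The median difference was 0.18, and 23 were higher without day 7 replicate 2. The summed level of this list was 1037 to 1049 RPKM at day 0, 679 to 901 at day 4 and 890 to 983 at day 7. Ccne2 and Cdkn2a, a cyclin of S phase entry and an inhibitor of the cycle, were higher by 0.80 ± 0.25 and 0.80 ± 0.10, and Ccnd1 had levels of 138, 82.3 and 124 RPKM at day 4 and 162, 169 and 208 at day 7, a difference of 0.67 ± 0.25. Mki67, the common marker of cycling cells, overlapped, with levels of 8.905, 6.24 and 7.29 RPKM at day 4 and 8.46, 8.21 and 7.91 at day 7. Of 58 cytosolic ribosomal protein genes, 21 were higher and 10 lower, and 17 and 15 once the length trend was removed. Rpl35 and Rpl13 lay at either end, at 1.49 ± 0.16 and -0.999 ± 0.10, with 84.0% of the 50-base stretches of Rpl35 shared with other genes.

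Some of the largest differences lay outside these lists. Among genes with a mean of at least 10 CPM, Dynap, which encodes a membrane protein, had the largest difference upwards. Its levels were 2.499, 1.41 and 2.503 RPKM at day 4 and 41.2, 23.7 and 37.3 at day 7, a difference of 3.76 ± 0.33. Entpd3, an enzyme that cleaves extracellular ATP, had levels of 2.17, 1.92 and 1.98 RPKM at day 4 and 11.5, 14.8 and 12.6 at day 7, a difference of 2.595 ± 0.12. The amino acid transporter gene Slc36a2 had levels of 1.73, 1.97 and 1.51 RPKM at day 4 and 9.09, 12.8 and 10.4 at day 7, and the sodium-calcium exchanger gene Slc8a3 had 5.58, 3.85 and 5.18 RPKM at day 4 and 26.9, 24.9 and 29.8 at day 7, differences of 2.52 ± 0.18 and 2.47 ± 0.18. Both transporters lay far above day 4 in every day 7 library and were low at day 0, at 0 to 0.0192 RPKM and 0.469 to 0.633 RPKM. Cadm1, a cell adhesion molecule, and Ppp1r3c, which targets a phosphatase to glycogen, were higher by 2.303 ± 0.15 and 1.999 ± 0.41. The potassium channel gene Kcnf1, the cysteine dioxygenase gene Cdo1 and the glycosyltransferase gene B4galnt3 followed at 1.98 ± 0.22, 1.94 ± 0.27 and 1.92 ± 0.14. On the other side, the potassium channel gene Kcnj2 had levels of 8.84, 6.74 and 9.002 RPKM at day 4 and 2.36, 2.35 and 1.79 at day 7, a difference of -1.87 ± 0.18. Ankrd60 varied widely between the day 7 libraries, with levels of 26.9, 25.3 and 13.9 RPKM at day 4 and 3.55, 12.9 and 1.301 at day 7, a difference of -2.26 ± 0.91, and the short noncoding RNA Rn7s6 was lower at -2.04 ± 0.32 with 51.2% of its 50-base stretches shared.

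The label of calvarial osteoblasts was checked against markers of other cells that a calvarial isolate could hold. Runx2, Sp7, Alpl and Ibsp were present in every library of the 2 stages at the levels given above. Col1a1 was given above by its difference and by its share of reads together with Col1a2. The summed level of 20 macrophage markers was 107 to 129.6 RPKM at day 4 and 129 to 151 at day 7. Of the 17 above the CPM limit, 6 were higher by non-overlap and 4 by edgeR. C1qa, a complement gene of macrophages, had the largest difference at 0.80 ± 0.16, with levels of 6.18, 8.22 and 6.03 RPKM at day 4 and 12.4, 10.8 and 13.1 at day 7, while Csf1r overlapped at 0.09 ± 0.08. A set of 12 osteoclast markers, 8 of them above the limit, summed to 286 to 292 at day 4 and 322 to 359 at day 7. Ckb was higher at 1.13 ± 0.07 and Itgb3 lower at -0.28 ± 0.03, both also made by other cells. Acp5 and Ctsk, defining genes of osteoclasts, overlapped at -0.15 ± 0.15 and 0.07 ± 0.07. A set of 17 chondrocyte markers summed to 329 to 436 at day 4 and 414 to 559 at day 7. Of the 14 above the limit, 4 were higher and 1 lower. Comp, described above, had the largest difference of those that were higher, at 2.46, and 2 of the 4 were over 2-fold higher. Sox6 was the member that was lower, at -0.26 ± 0.08. Col2a1, the main collagen of cartilage, overlapped. Its levels were 141, 34.1 and 61.4 RPKM at day 4 and 90.6, 31.9 and 38.8 at day 7. In bulk RNA, fewer cells of a type and less RNA per cell cannot be told apart.

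The other lists were low or without a common direction. A set of 15 endothelial markers, 4 of them above the limit, summed to 16.1 to 20.2 at day 4 and 11.7 to 14.2 at day 7. Most of this level was Erg, which was lower at -0.73 ± 0.15. Egfl7 was higher at 0.38 ± 0.04, and Tie1 and Emcn had no reads. A set of 13 adipocyte markers, 5 of them above the limit, summed to 12.4 to 14.3 and 13.8 to 14.2. Cd36 was higher at 0.72 ± 0.17, and Adipoq, Lep, Retn and Cidec stood at 0 in these stages. Of 11 contractile genes, 3 were higher and 3 lower, Myl9 at 0.57 ± 0.05 and Tagln at -0.59 ± 0.09, although 67.9% of the exonic bases of Tagln overlap other genes. None of 7 neural and glial markers and none of 5 sex-linked genes was called in either direction. The part of these other cells in the differences above was not tested.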

How the data were processed

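RNA-seq libraries (9) were made from total RNA after ribosomal depletion. Per the labels and the study's methods, reads were aligned with STAR 2.0.4b to GRCm38 and uniquely aligned reads were counted per gene with featureCounts. The authors deposited CPM values, read counts scaled to library size, and RPKM values, which are scaled to gene length as well. Each deposited CPM value was a whole number of reads within a tolerance of 0.01 for 100% of values, so read counts were recovered. Repeated lines with identical values (276 and 273) were used once.

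Libraries were rescaled by median-of-ratios factors over 16573 genes above 0 in all 6, genes with a mean rescaled CPM of at least 1 were kept (12491 with reads were left out), and log2(CPM + 0.5) was compared by stage. Calls required non-overlap of 3 and 3 libraries. Neither this rule nor a test can separate stage from table, and with so few libraries non-overlap alone is weak. Python 3.11.15 with pandas 2.3.3, edgeR 4.0.16 (quasi-likelihood test, Benjamini-Hochberg adjustment), DESeq2 1.42.0 and limma 3.58.1 were used, and the fits were tested on simulated data.

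Named genes were the 15 largest differences in each direction at a mean of at least 10 CPM without overlap, the largest in each direction in each list and the genes named by the study; some are not reported here. Other list members named as examples were chosen after their values were seen. The members and lists were chosen with earlier results of these data known. Exon overlaps came from GENCODE M21 and promoters from RefSeq. Alternatives covered scaling, filters, pseudocount, length, GC, single libraries, pairing and 4 count models.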

Additional observations from a re-analysis of the deposited data

How the results depend on the processing

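With the CPM as deposited 1754 genes were higher in place of 2896. By edgeR 1623 were higher and 1638 lower, in place of 2896 and 2695, and by DESeq2 1545 and 1587. At a minimum mean of 10 CPM, 92 genes were over 2-fold higher and 77 over 2-fold lower, in place of 150 and 164, since fewer genes were tested. On the RPKM scale 103 were over 2-fold lower, as the pseudocount then weighs more on long genes. Leaving out 1 library gave 3142 to 3580 genes higher and 2959 to 3475 lower, since fewer libraries can overlap, and 143 to 165 over 2-fold higher and 169 to 198 over 2-fold lower. Of 94 named genes called without overlap, edgeR kept 91, DESeq2 88 and limma with quality weights 92, and none of these 94 changed direction under the alternatives run. Atf4 and Pdk1, which overlapped, lay on either side of 0 depending on the alternative. Runx2, Hist1h1c and Hsp90b1 were not called by edgeR.

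The deviations of same-numbered libraries from their stage means correlated at 0.0581, 0.3225 and 0.4419, so the numbers were not taken to pair the samples, although each library correlated best with its own number. With the replicate block edgeR called 1824 genes higher and 1859 lower, and 90 of the 94 named genes. Pair by pair, 3922 were higher and 3770 lower in all 3 pairs (replicate block). Depth limits the genes under 1 CPM, of which day 7 libraries saw fewer, and stage, table and depth cannot be told apart.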
